A study of Mus musculus with 3 samples.

Results

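HBO1 binding was examined at 10 genes that encode the core and naive pluripotency factors of mouse ESCs: Pou5f1, Sox2, Nanog, Klf2, Klf4, Klf5, Esrrb, Tfcp2l1, Prdm14 and Tbx3. They were taken by name from the 21938 protein-coding genes of GENCODE vM21 on mm10, and all 10 were found. HBO1 ChIP-seq had been performed in mouse ESCs labelled Oct1 deficient, which lack the Oct4 paralog Oct1 encoded by Pou2f1. All cells were kept undifferentiated with LIF, the MEK inhibitor PD0325901 at 1 µM, the GSK3 inhibitor CHIR99021 at 3 µM and ascorbic acid, and were fixed with 1% formaldehyde. The groups were HBO1 ChIP, with 2 samples, and input, sheared chromatin taken without antibody, with 1. Per the study's methods, ESCs were grown on feeder fibroblasts that were depleted on gelatin before use. No sample labelled as having Oct1 was analysed here. A title among the paper's supplementary tables names WT cells for these peaks, whereas the labels were followed here, and the genotype was not tested. The antibody of the second ChIP sample is labelled HBO2, while its title names HBO1, which was followed. The deposited result is 1 list of 13823 peaks, taken as that of both ChIP samples, so no value below has a spread between replicates and no p-value was computed. The input held 31973678 aligned read ends, and the depth of the ChIP samples was not analysed here. No expression was measured, so the labelled cell type could not be checked against its marker genes.

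Oct4, the product of Pou5f1, Sox2 and Nanog form the core of the transcription factor network that maintains pluripotency, and they bind one another's genes. Klf2, Klf4, Klf5, Esrrb, Tfcp2l1, Prdm14 and Tbx3 encode the factors of the naive state, in which LIF, Wnt and MEK signals are read out: Klf4 and Tfcp2l1 respond to LIF and Stat3, and Esrrb is held down by Tcf7l1 until GSK3 is inhibited. HBO1, also called Kat7, is the catalytic subunit of a histone acetyltransferase complex whose scaffold is a Jade or Brpf protein. Such complexes are known to sit at the start sites of active genes.

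HBO1 peaks were found at all 10 genes, and at 8 of them a peak lay near the outermost transcription start site (TSS), meaning at most 1 kb from it. Esrrb and Prdm14 were the exceptions. Over all protein-coding genes this share was 18.7%. A peak overlapped the gene itself at 10 of 10 members, against 28.2% of protein-coding genes, and at least 2 peaks did so at 6 members, against 7.84%. Close neighbours, such as the peaks in Klf2 and in Klf4, were counted separately, and this count was not repeated after merging. A peak lay within 50 kb at all 10 members, against 62% of protein-coding genes. In all, 66 peaks lay in or within 50 kb of the members, and none was counted for more than 1 member. Of these, 11 were within 1 kb of the outermost TSS, 27 were elsewhere in the gene and 28 were outside it. Nanog and Esrrb, with the 50 kb on either side, together held 32 of the 66, or 48.5%.

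**Figure D1:**
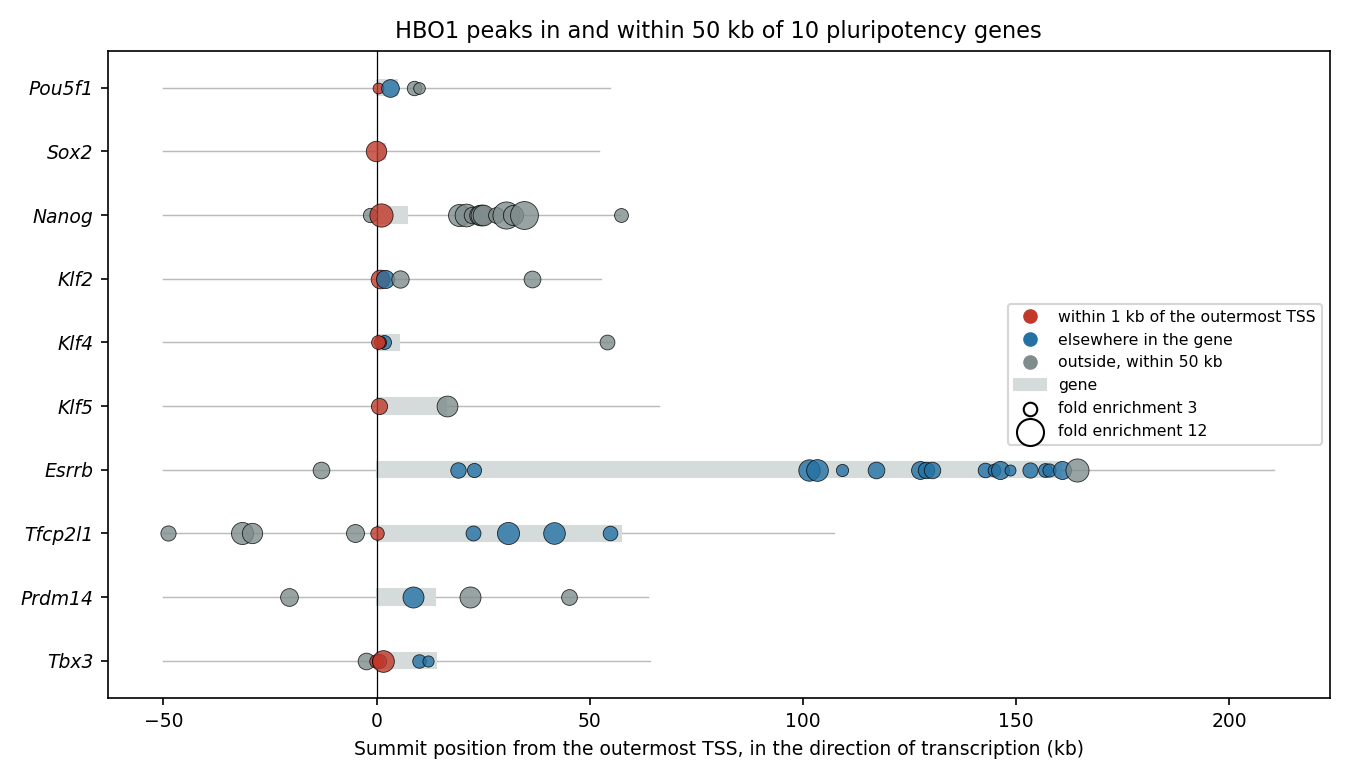
Position of the summit of each of the 66 HBO1 peaks relative to the outermost TSS of its gene, in kb along the direction of transcription, with circle area proportional to fold enrichment, grey bars for the genes and grey lines for the 50 kb on either side. Peaks crowd around the TSS of Klf2, Klf4 and Tbx3, downstream of Nanog and in the distal part of Esrrb.

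Member peaks ranged widely in base composition, from 0 to 31 CpG in the 200 bases around the summit, with a median of 6, and 7 summits are printed. They show CpG-dense starts beside summits of 5 to 9 CpG, which are near the median, and the sparsest are not among them. Each sequence is 200 bases of GRCm38 around the summit, 5′ to 3′ on the plus strand, which is the strand of all 6 genes involved, with CpG dinucleotides in capitals. At Sox2, Klf2 and Klf5 the summit lay in CpG-dense sequence, with 29, 31 and 29 CpG in the 200 bases. The Pou5f1 summit held 9, the Nanog intron summit held 8 and the strongest summit in Esrrb held 5. The summit 34.6 kb downstream of the Nanog TSS, which had the highest fold enrichment of all 66, held 9. The median over all 13823 peaks was 8.
Sox2, at the start, chr3:34650254-34650453: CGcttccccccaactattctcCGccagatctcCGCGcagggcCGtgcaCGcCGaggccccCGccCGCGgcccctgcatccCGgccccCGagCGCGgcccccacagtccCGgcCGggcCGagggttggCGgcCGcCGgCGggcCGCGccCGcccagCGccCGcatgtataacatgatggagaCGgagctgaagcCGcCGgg
Klf2, coding exon, chr8:72319711-72319910: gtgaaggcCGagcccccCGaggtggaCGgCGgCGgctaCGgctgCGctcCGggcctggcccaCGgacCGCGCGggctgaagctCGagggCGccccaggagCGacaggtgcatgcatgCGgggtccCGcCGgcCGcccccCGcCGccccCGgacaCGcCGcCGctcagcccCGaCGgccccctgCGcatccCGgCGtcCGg
Klf5, intron, chr14:99299134-99299333: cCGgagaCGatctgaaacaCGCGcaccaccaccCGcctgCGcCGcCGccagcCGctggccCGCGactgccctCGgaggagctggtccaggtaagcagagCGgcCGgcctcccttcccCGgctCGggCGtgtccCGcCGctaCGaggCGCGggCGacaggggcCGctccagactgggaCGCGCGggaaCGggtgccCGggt
Pou5f1, coding exon, chr17:35506265-35506464: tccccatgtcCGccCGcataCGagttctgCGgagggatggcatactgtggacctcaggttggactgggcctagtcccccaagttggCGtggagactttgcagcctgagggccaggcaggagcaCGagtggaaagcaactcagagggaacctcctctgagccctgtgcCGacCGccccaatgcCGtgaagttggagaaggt
Nanog, intron, chr6:122708487-122708686: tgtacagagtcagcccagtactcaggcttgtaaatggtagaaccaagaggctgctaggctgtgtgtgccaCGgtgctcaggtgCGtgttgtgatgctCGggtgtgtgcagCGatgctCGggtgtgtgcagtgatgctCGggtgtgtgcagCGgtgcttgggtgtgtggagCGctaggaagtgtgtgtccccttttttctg
Nanog, 34.6 kb downstream, chr6:122742010-122742209: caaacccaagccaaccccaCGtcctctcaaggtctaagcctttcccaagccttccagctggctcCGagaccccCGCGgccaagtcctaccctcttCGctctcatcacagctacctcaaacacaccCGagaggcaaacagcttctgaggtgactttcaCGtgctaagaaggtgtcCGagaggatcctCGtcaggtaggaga
Esrrb, intron, chr12:86464269-86464468: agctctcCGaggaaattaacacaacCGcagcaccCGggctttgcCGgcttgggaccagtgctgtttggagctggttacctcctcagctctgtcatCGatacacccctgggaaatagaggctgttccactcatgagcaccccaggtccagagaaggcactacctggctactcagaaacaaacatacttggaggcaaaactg

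The peaks of the core factors spanned most of the range seen at the 10 genes. Sox2, a single-exon gene on the plus strand of chromosome 3 (chr3:34650405-34652461), had 1 peak within 50 kb. It was 1391 bp wide, covered the TSS, and had its summit at −51 bp. Its fold enrichment, the authors' ratio of ChIP signal over the local background, was 6.85. Its −log10 q, the authors' measure of the statistical confidence of the peak against that background, was 72.3. This was the highest of the 66 and higher than 99.6% of the values in the list. Around this summit, 81 input read ends fell in 1 kb. Among peaks with similar input the fold enrichment was at percentile 99.9.

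Nanog (chr6:122707489-122714633, plus strand) encodes the homeodomain factor of the core network. It had a peak of 437 bp in its intron, with the summit at +1098 bp and its edge 859 bp from the outermost TSS. The fold enrichment was 8.88 and the −log10 q 54.4, the highest fold enrichment of the 11 peaks near a TSS. The input held 28 read ends around the summit, all with a mapping quality of at least 20. As the printed sequence shows, this summit lay in a tandem repeat, in which a unit of 19 bases recurred 3 times at intervals of 20 bases. Whether the repeat contributed to the height of the peak was not tested. A smaller peak lay upstream, with its summit at −1644 bp, an enrichment of 3.40-fold at −log10 q 12.2. Around the Nanog TSS itself there were 4 input read ends per 1 kb, against a median of 10 at genes of the same GC content, so a peak there could only have been seen against very little input.

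Downstream of Nanog, 10 peaks lay between 19.3 and 34.6 kb from its TSS. Their fold enrichment ran from 4.13 to 12.8 with a median of 7.12, and 7 of the 10 were above the 90th percentile of the whole list. Among peaks with similar input, 4 of the 10 were. The strongest had a fold enrichment of 12.8, a −log10 q of 46.3 and a width of 1617 bp, and the next, at +30.5 kb, had 12.1 and 29.0. Only 30 of the 13823 peaks, or 0.217%, had a fold enrichment of at least 12. These peaks cannot be assigned to Nanog by distance, because 9 of the 10 summits lay inside Slc2a3, which encodes a glucose transporter. The strongest peak covered an annotated start of Slc2a3. The input around the 10 summits ran from 0 to 26 read ends, so their fold enrichments rest on few input reads. Soft-masked repeats made up 94% of the 200 bases around the summit at +19.3 kb and 65% at +24.5 kb. Over 50% was masked at 4 of the 66 member summits, the others being Esrrb at +101 kb with 78% and Prdm14 at +45.0 kb with 75.5%, against 24.6% of all peaks.

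Pou5f1 (chr17:35506018-35510772, plus strand) stood at the other end. Its peak near the TSS, with the summit at +347 bp in a coding exon, was enriched 1.93-fold at −log10 q 3.21. The fold enrichment was at percentile 4.11 of all peaks, and this was the lowest value of any member peak near a TSS. Pou5f1 would not have counted as having a peak near its TSS had a −log10 q of 5 or more been required. The input at its TSS was 103 read ends, against a median of 79 at genes of the same GC content. A stronger peak lay at +3256 bp, in an intron, enriched 5.16-fold at −log10 q 11.2. It was 235 bp from the start of a shorter Pou5f1 transcript, and the antisense gene Gm19553 overlaps it. A pair of peaks farther downstream, at +8.68 and +10.1 kb, had fold enrichments of 3.43 and 2.23. Both summits lay in coding exons of the neighbouring gene Tcf19, and the second peak was also within 1 kb of the start of Cchcr1.

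Among the naive factors, the Klf genes had HBO1 at their CpG-rich starts. These are zinc finger factors that bind GC-rich sequence and act partly in place of one another in ESCs. Klf2 (chr8:72319033-72321656, plus strand) had a peak of 1415 bp from 26 bp past its TSS, with the summit at +778 bp in a coding exon, an enrichment of 5.72-fold at −log10 q 69.1. A second peak of 1249 bp, with its summit at +1882 bp and also in coding sequence, had 5.47 and 30.2. With a gene length of 2624 bp, the pair covered most of Klf2. The other peaks of Klf2, at +5.55 kb and at +36.5 kb in an intron of Eps15l1, were weaker, with fold enrichments of 4.94 and 4.64. Klf5 (chr14:99298691-99315036, plus strand) had a peak with its summit at +543 bp, in an intron, and covering the start of a second transcript, enriched 4.32-fold at −log10 q 36.4. Its other peak lay at +16.6 kb, just past the gene, with 7.15 and 12.4. Klf4 (chr4:55527143-55532466, minus strand) had 3 peaks close to its start, each lower in fold enrichment and −log10 q than the pair at the start of Klf2. Their summits were at +233, +762 and +1805 bp, with fold enrichments of 3.16, 2.47 and 3.24 and −log10 q of 16.5, 8.32 and 16.4. One more peak lay 48.5 kb past Klf4 with a fold enrichment of 3.62.

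Tbx3 (chr5:119670669-119684724, plus strand), a T-box factor that acts in the naive network and also in limb and heart development, had 3 peaks near its TSS. Their fold enrichment was 3.00 at −138 bp, 3.36 at +639 bp and 7.75 at +1462 bp, and the −log10 q of the strongest, 54.6, was close to that of the Nanog intron peak. That summit lay in a coding exon. Peaks at +10.1 and +12.2 kb, in coding exons near the end of the gene, had fold enrichments of 3.01 and 2.07, and a peak upstream at −2.38 kb had 4.60. The start of the antisense gene Tbx3os1 was within 1 kb of each of the 3 peaks near the TSS, so they cannot be assigned to 1 of the 2 genes by position.

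Tfcp2l1 (chr1:118627945-118685168, plus strand), a CP2-family factor downstream of Stat3, had a peak over its TSS with the summit at +158 bp, an enrichment of 3.00-fold at −log10 q 16.7. By −log10 q this was the highest of its 9 peaks, whereas those with the highest fold enrichment lay elsewhere. Those in an intron at +30.7 kb and in a coding exon at +41.5 kb had fold enrichments of 8.01 and 7.71, and one at −31.7 kb in an intron of the upstream gene Clasp1 had 7.99. Their −log10 q was 11.7, 11.9 and 12.6. The input around these 3 summits was 3, 10 and 7 read ends, against 79 at the TSS peak. The other 5 peaks of Tfcp2l1, at −49.0, −29.2, −4.98, +22.7 and +54.7 kb, had fold enrichments of 3.80, 6.79, 5.29, 3.67 and 3.52, and the last was 673 bp from the start of the snRNA gene Gm23497.

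Esrrb and Prdm14 lacked a peak near the outermost TSS. Esrrb (chr12:86361117-86521628, plus strand), an orphan nuclear receptor, had 19 peaks within 50 kb, 17 of them overlapping the gene. Only 16 protein-coding genes, or 0.0729%, had as many within 50 kb. The 19 fell to 14 when −log10 q had to reach 5 and to 7 when it had to reach 10, while Nanog kept 13 and 11. How many genes had as many at those thresholds was not computed. Esrrb spans 161 kb, and longer genes overlapped peaks more often, from 12.1% in the decile of the shortest genes to 54.2% in that of the longest. In the latter, 0.228% had as many peaks overlapping the gene as Esrrb. Of the 19, 16 lay between +101 and +164 kb, with fold enrichments of 1.98 to 8.77 and a median of 4.47. The input around these 16 summits ran from 2 to 65 read ends, with a median of 19. The strongest lay 3.7 kb past the end of the gene, with a −log10 q of 20.2, and the strongest inside it, at +103 kb, was enriched 7.77-fold at −log10 q 11.7. The other 3 peaks, at −13.1, +19.1 and +22.8 kb, had fold enrichments of 4.60, 3.93 and 3.31, and the first covered the start of the pseudogene Gm48101. Summits of 13 peaks were in introns. The starts of 3 Esrrb transcripts at +60.5 to +60.8 kb were at least 37639 bp from any peak, whereas the start of the transcript Esrrb-206, at +109 kb, lay 56 bp from a peak enriched 2.46-fold at −log10 q 8.59. The start of the noncoding transcript Esrrb-205, at +143 kb, lay 468 bp from a peak enriched 3.51-fold at −log10 q 9.15. Esrrb thus had a peak near a start only when every annotated transcript was considered.

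Prdm14 (chr1:13113457-13127163, minus strand), a PR-domain factor that represses Fgf signalling genes and de novo DNA methyltransferases, had 4 peaks. The nearest to its TSS was intronic, with the summit at +8.56 kb. Its fold enrichment of 7.27 and −log10 q of 9.73 were the same to all deposited digits as those of the peak at +21.9 kb. This pair of values was shared by 60 peaks of the list, and 60.6% of the member peaks shared both values with at least 1 other peak, against 77.1% of all peaks. Ranks among such peaks were therefore tied. The peak at −20.6 kb, with a fold enrichment of 5.18, was 606 bp from a start of Ncoa2, and that at +45.0 kb had 4.10. No Prdm14 peak reached −log10 q 10.

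**Figure D2:**
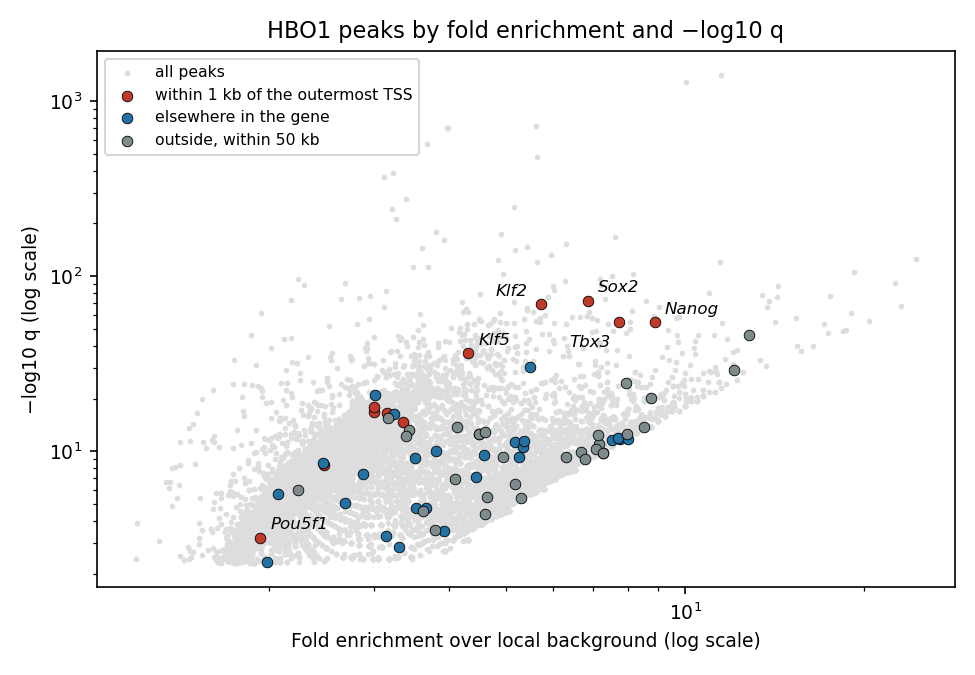
Fold enrichment over local background against −log10 q, both on log scales, for all 13823 HBO1 peaks in pale grey and the 66 peaks of the 10 genes in colour by position. The strongest peaks near the TSS of Sox2, Klf2, Tbx3, Nanog and Klf5 lie along the upper edge of the cloud, and that of Pou5f1 lies near its lower left corner.

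The member peaks were compared with the whole list. Their median fold enrichment was 4.59, against 3.80 over all peaks, and their median −log10 q was 10.8, against 6.98. The sets differed in make-up, and these medians were not adjusted for it. Of the 66, 11 were near the outermost TSS, while 5625 of the 13823 listed peaks were within 1 kb of any TSS. Fold enrichment was lower in the latter, as given below. Of the 66, 42 were above the median fold enrichment of the list and 50 above its median −log10 q. Above the 90th percentile there were 20 by fold enrichment and 15 by −log10 q. Of the 20, 7 were among the peaks downstream of Nanog, most of which lay inside Slc2a3. When each peak was ranked only among peaks with similar input, 47 were above the median and 19 above the 90th percentile, 4 of them downstream of Nanog in the same group. Only 4 member peaks, those of Sox2, Klf2, Tbx3 and Nanog near the TSS, had −log10 q of 50 or more, which 120 peaks or 0.868% of the list had. The 11 peaks near the outermost TSS had a median fold enrichment of 3.36, against 2.69 over the 5625 peaks of the list within 1 kb of any TSS. Their summits lay downstream of the outermost TSS in 9 of 11 cases, the exceptions being Sox2 and 1 of the 3 peaks of Tbx3. Starts of other transcripts also lie downstream of the outermost one, and the share over the whole list was not computed. The count was therefore not read as a trait of the members. The 28 peaks outside the genes had a higher median fold enrichment, 5.23, but a lower median −log10 q, 10.6, than the 11 near a TSS with 17.8. The whole list showed the same contrast, with medians of 4.68 and 6.45 for peaks farther than 1 kb from any TSS and of 2.69 and 7.84 for those nearer. The 27 peaks elsewhere in the genes had medians of 3.93 and 9.55, so their fold enrichment was under that 4.68. The median input around the summit was 9 read ends for the 28 and 86 for the 11.

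The number of peaks around each gene ranged widely. Nanog had 13 within 50 kb, a number reached by 59 protein-coding genes or 0.269%. Of the 13, 10 were the peaks downstream of Nanog that cannot be assigned to it by distance. Tfcp2l1 had 9, reached by 1.17%, and Tbx3 had 6, reached by 4.40%. Pou5f1, Klf2, Klf4 and Prdm14 had 4 each, which 12.5% of genes reached. Klf5 had 2 and Sox2 had 1, which were reached by 36.1% and 62.0%. The median was 4 for the members and 1 for all protein-coding genes. Sox2 thus combined the fewest peaks with the highest −log10 q.

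**Figure D3:**
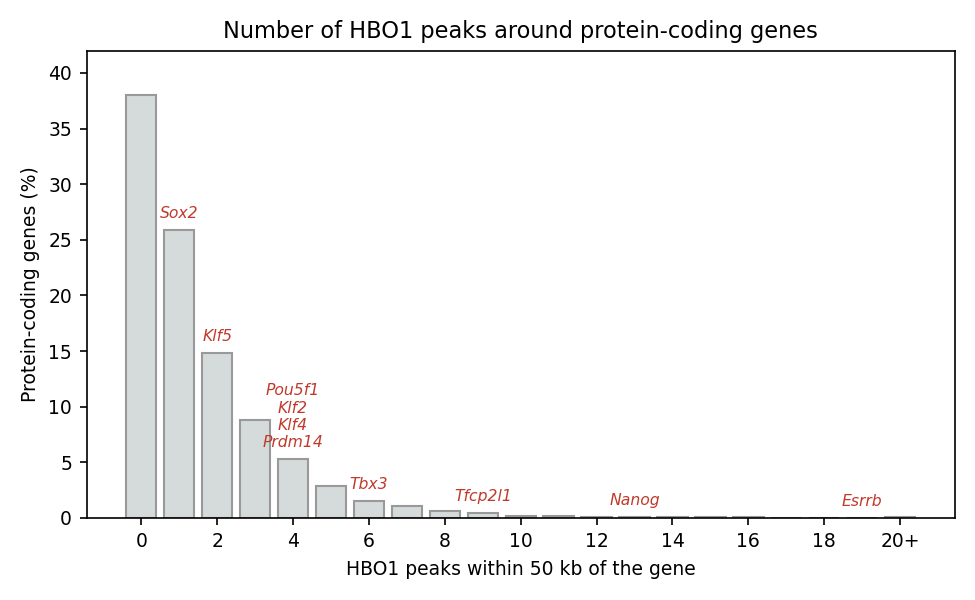
Percentage of the 21938 protein-coding genes by number of HBO1 peaks within 50 kb, with 20 or more in the last bar. Names mark the members, with Sox2 and Klf5 near the bulk of genes and Nanog and Esrrb in the far tail.

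Because GC-rich starts carried peaks more often, the members were set beside genes of the same GC content and beside related gene lists. The share of protein-coding genes with a peak near the outermost TSS was 0.319% in the decile with the lowest GC content around the TSS and 52.4% in the highest. Weighted by the deciles in which the members fell, it was 29.5%, against 8 of 10 measured. Nanog, whose TSS had 48.8% GC, had a peak where 5.42% of genes in its decile did. The edge of that peak lay 859 bp from the TSS, and its summit, at +1098 bp, had 57% GC, so it lay outside the window in which GC was counted. Klf4 and Klf5 had one where 52.4% did. Of 28 other pluripotency genes, 13 or 46.4% had a peak near the TSS, against 18.4% by GC content. Their number fell to 6 when −log10 q had to reach 10 and to 4 when fold enrichment had to reach 3, while the share of all protein-coding genes fell to 7.01% and 5.30%. The strongest were at Tdgf1, which encodes a Nodal co-receptor, with a fold enrichment of 7.15, at Dppa5a with 4.18 and at Sall4, a zinc finger partner of Oct4, with 3.69. Of 12 genes of the formative and primed states that follow the naive state, 3 or 25% had one, against 33.6% by GC content. Those were Etv5 with a fold enrichment of 3.57, Zic2 with 2.44 and the DNA methyltransferase gene Dnmt3b with 1.64. Of the 14 other Klf genes, 6 or 42.9% had one, against 34.7% by GC content, with the strongest at Klf3 with 3.47, Klf10 with 2.94 and Klf9 with 2.75. The median number of peaks within 50 kb was 3 in the other pluripotency genes, 1.5 in the formative and primed genes and 1 in the other Klf genes. These lists were chosen by knowledge of the genes, with earlier results of these data known, and their shares were not tested against one another.

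**Figure D4:**
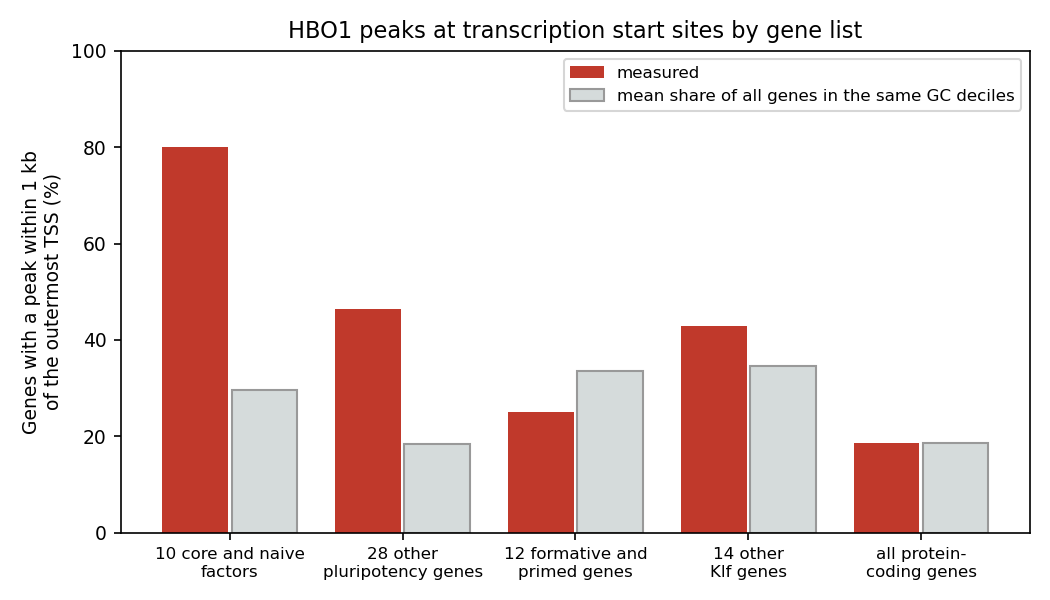
Percentage of genes with an HBO1 peak near the outermost TSS in each gene list (red) and the mean percentage over all protein-coding genes in the same deciles of GC content (grey). The red bar exceeds the grey one by the most for the 10 core and naive factors, at 80% against 29.5%, and lies under it for the formative and primed genes, at 25% against 33.6%.

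The input was read at each member to see how much signal was available. Around the outermost TSS it ranged, per 1 kb, from 4 read ends at Nanog to 112 at Tbx3, with 34 at both Esrrb and Prdm14, the genes without a peak there. At Pou5f1 the input was 103, at Sox2 77, at Klf2 107, at Klf4 106, at Klf5 102 and at Tfcp2l1 67. These values followed GC content. Over all protein-coding genes the median input at the TSS was 5 read ends at 45 to 50% GC, 33 at 50 to 55% and 100 at 65 to 70%. Set beside genes of the same GC content, Esrrb was low, with 34 against a median of 59 and at percentile 8.80, and Prdm14 was not, with 34 against 36. That value for Esrrb is of the outermost start only. At its starts at +60.5 and +60.8 kb, which also had no peak within 1 kb, the input was 61 and 67 read ends. Over each gene and 50 kb on either side, the input relative to windows of the same GC content ran from 0.862 at Esrrb to 1.44 at Sox2. All 10 were between 0.589 and 1.48, the central 95% of 19803 protein-coding genes on the autosomes other than chromosome 3. Sox2 lies on chromosome 3, which that range leaves out.

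**Figure D5:**
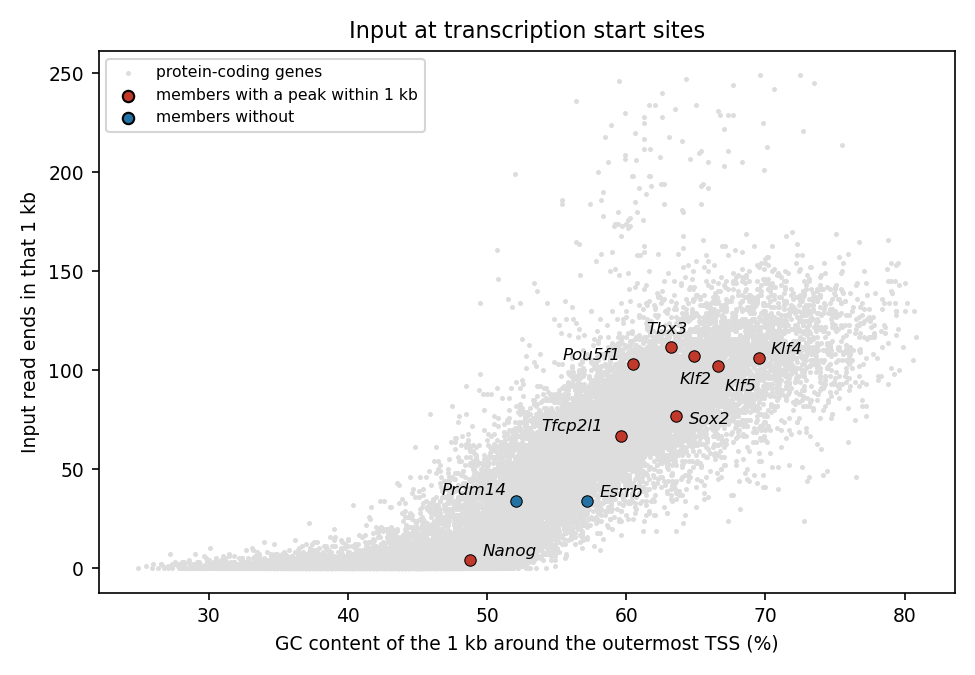
Input read ends per 1 kb at the outermost TSS against GC content for protein-coding genes with at most 250 read ends (pale grey) and for the 10 members, red with a peak within 1 kb and blue without. Input climbs with GC content. The 1 kb around the Nanog TSS held 4 read ends, and its peak lies outside that window, with 28 read ends around the summit.

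The summits were searched for the sequences that the factors themselves bind, on both strands in the 200 bp around each summit. The octamer and the Sox-Oct element below share the letters ATGCAA. The octamer ATGCAAAT, bound by Oct4 and its paralogs, was in none of the 66 and in 0.188% of all peaks. The MORE, a palindromic site for Oct4 dimers spelled here as ATGCAT repeated in tandem, was in none and in 0.00723% of all peaks. The composite Sox-Oct element, TTGT followed by any base and ATGCAA, was in none and in 0% of all peaks. The Esrrb sequence TCAAGGTCA was in none and in 0.463% of all peaks. The Klf sequence GGGNGTGG was in 11 of the 66, or 16.7%, against 9.29%, and 4 of these were among the peaks downstream of Nanog. Matches at Nanog +19.3 and +24.5 kb and at Prdm14 +45.0 kb were at summits of over 50% soft-masked repeats. The part of repeats in these matches was not tested. The Tfcp2l1 sequence, CCAG repeated after a gap of 6 bases, was in 2, against 3% of all peaks, and the Stat3 sequence TTCCNGGAA was in 1, against 0.499%. Matches describe letters only and were not read as binding. Every member summit had at least 52% GC in its 200 bases, and 1.61% of all peaks had under 50%, so AT-rich sequence was scarcely represented among summits. Input at starts of under 45% GC had a median of at most 2 read ends. Its part in the rarity of octamers at the summits was not tested.

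Sites were also located around each gene, and 5 are printed, 3 away from the summits and 2 of the summit matches counted above, because they show where the sequence of a factor lay relative to HBO1. Within 50 kb of the members there were 68 octamers, of which 4 were within 200 bp of a peak, at Klf2, Tbx3 and, with 2 sites, Klf5. The median distance from an octamer to the nearest peak was 7390 bp. One octamer at Klf5 lay 2 bp beyond the edge of the peak at its start. In windows that reach 200 bp past each edge of a peak, 6.06% of member peaks held an octamer, against 2.30% of all peaks. Such windows grow with the peak, and the median width was 428.5 bp for member peaks against 367 bp for all peaks. The shares in these windows were not adjusted for the longer sequence searched. In the same wider windows the Esrrb sequence was in 3 member peaks or 4.55%, against 1.65%, and the Klf sequence in 42.4%, against 30.3%. The Tfcp2l1 sequence was in 6.06%, against 10.7%, and the Stat3 sequence in 1.52%, against 2.08%. The MORE and the Sox-Oct element were in no member peak, against 0.0217% and 0.0506%. The 1 match to the Sox-Oct spelling was that of the Nanog promoter, a known Oct4 and Sox2 site, at −69 bp from the outermost TSS and 923 bp from the nearest peak. Each sequence was searched only as spelled above, so elements with other letters were missed. The paper describes an Oct:Sox element upstream of Pou5f1, where this spelling had no match within 50 kb. The 1 MORE, at +58693 bp from the Tfcp2l1 TSS and past the end of that gene, was 3851 bp from a peak. The summit matches are those of the Tfcp2l1 sequence at +30.7 kb and of the Stat3 sequence at +41.5 kb in Tfcp2l1. Each line gives the site in capitals with 25 bases of GRCm38 on either side, 5′ to 3′ on the plus strand, so that a site on the minus strand reads as its reverse complement.
Nanog, Sox-Oct element, chr6:122707390-122707450: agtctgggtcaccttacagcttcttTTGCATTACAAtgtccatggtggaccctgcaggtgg
Klf5, octamer, chr14:99299558-99299615: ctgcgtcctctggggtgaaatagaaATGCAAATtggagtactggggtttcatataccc
Tfcp2l1, MORE, chr1:118686607-118686668: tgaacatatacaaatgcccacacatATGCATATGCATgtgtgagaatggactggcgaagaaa
Tfcp2l1, Tfcp2l1 sequence, chr1:118658550-118658613: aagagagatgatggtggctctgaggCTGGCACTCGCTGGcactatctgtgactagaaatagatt
Tfcp2l1, Stat3 sequence, chr1:118669378-118669436: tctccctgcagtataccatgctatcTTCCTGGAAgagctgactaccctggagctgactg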

How the data were processed

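HBO1 ChIP-seq data came from 1 input sample and 2 ChIP samples. Reads were mapped by the authors to mm10 with Novoalign 4.03.01, and peaks were called with MACS2 (q 0.005, max-gap 100). How the ChIP samples were combined is not given in the sources used here. For every peak the deposited list holds a ratio to the local background (fold enrichment), a −log10 q from the authors' peak caller, and the summit. The deposited input lists aligned read ends, each with a mapping quality score set by the authors' aligner, and was not normalized.

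Genes and TSSs came from GENCODE vM21 and sequence from GRCm38, with no peak or read end past a chromosome end. The outermost TSS was that of the gene's 5′ end. Distances were taken from peak edges. Input was counted by the midpoint of each read end, per 1 kb around a TSS or summit. Peaks with similar input were those in the same decile of that count. Relative input took only read ends of mapping quality 20 or more, in 1-kb windows with 30 to 65% GC and no more than 200 read ends, and compared them with windows of the same 2% GC class on the autosomes other than chromosome 3. Python 3.11.15, numpy 2.4.6, pandas 2.3.3, scipy 1.17.1 and matplotlib 3.10.9 were used, and the peak-to-gene distances and motif scan were tested on simulated data.

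All 10 members were named, with the 3 genes of each list that had the highest fold enrichment near the TSS and genes whose TSS lay within 1 kb of a member peak. Other genes were named where a member peak lay in them. The sequences printed were selected after their values were seen. The members, lists and settings were chosen with earlier results of these data known. With 1 list and 1 input no test was made. Alternatives changed the peak threshold, the TSS definition and the windows. The base composition, repeat and tie counts were added after the values were seen.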

Additional observations from a re-analysis of the deposited data

How the results depend on the processing

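No paired analysis was possible because 1 peak list, taken as that of both ChIP samples, and 1 input were analysed, and for the same reason no replicate could be left out. The number of members with a peak near the outermost TSS stayed between 7 and 9 under 6 alternatives, with Pou5f1 lost when −log10 q had to reach 5 or 10 or fold enrichment 3, Nanog lost when distance was taken from the summit, and Esrrb gained with any transcript. The number with a peak in the gene was 9 or 10, with Prdm14 lost when −log10 q had to reach 10 and Sox2 lost when the summit had to lie inside the gene. Peaks within 50 kb fell from 66 to 36 when −log10 q had to reach 10 and to 54 when peaks with gaps of at most 1 kb were merged. Otherwise they ran from 47 to 84. Their median fold enrichment of 4.59 became 5.17 and 5.41 when −log10 q had to reach 5 and 10, and 4.62 in windows of 150 kb. The share of protein-coding genes with a peak near the outermost TSS, 18.7%, became 14.9% and 7.01% at those thresholds, 5.30% at a fold enrichment of at least 3, 21.7% with any transcript, 18.1% from the summit and 19.8% within 2 kb. Other pluripotency genes with such a peak fell from 13 to 10 and 6 when −log10 q had to reach 5 and 10, and to 4 when fold enrichment had to reach 3. They numbered 18 with any transcript, 14 within 2 kb and 11 from the summit. The cause of these changes in the thresholded counts is the smaller number of peaks kept. Input was low in AT-rich sequence, and a gene without a peak was not shown to lack HBO1.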

Other observations

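Beyond 50 kb, 18 more peaks lay within 150 kb of the member genes, at 9 of the 10 genes and none of them at Tbx3. The share of all protein-coding genes with a peak in this range was not computed, so the count has no background beside it. Fold enrichment was between 2.38 and 6.65, with a median of 5.17. Each summit had at least 50% GC, and only 1.61% of all peaks had less. Sox2, with 1 peak nearby, had 2 in this range. One lay at −94.0 kb, in an intron of the overlapping noncoding gene Sox2ot, enriched 5.30-fold at −log10 q 5.32. The other lay at +108 kb with 5.38 and 6.04, in the region where the distal enhancer of Sox2 in ESCs is known to lie, and held the Esrrb sequence at its summit. No other of the 18 held that sequence, which was at 0.463% of all summits. Its fold enrichment was at percentile 77.5 of all peaks and 42.7 among peaks with similar input. The −log10 q was at percentile 38.1, and the input around the summit was 3 read ends. Upstream of Nanog, a peak at −97.7 kb with a fold enrichment of 3.13 covered the start of Gdf3, which encodes a TGF-beta family ligand expressed in ESCs. A peak at +113 kb with 2.38 covered the start of Foxj2. Which gene, if any, these peaks act on was not tested.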
